A study of Mus musculus with 4 samples.

Results

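The Iroquois genes Irx1 to Irx6 encode homeodomain transcription factors of the TALE superclass. They lie in 2 clusters of 3 genes each, and in the mouse Irx1, Irx2 and Irx4 form the IrxA cluster on chromosome 13 while Irx3, Irx5 and Irx6 form the IrxB cluster on chromosome 8. All 6 genes were taken by name, out of 34614 annotated protein-coding and long non-coding genes. Reads were counted over each gene span with 2 kb added on either side. The listed distal regions between and around the genes were taken by position, which gave 99 regions in IrxA and 100 in IrxB out of 145453 listed distal regions, and 8 promoter regions out of 19204. The family was chosen by the gene-span levels by class and library, with no threshold, so those levels are described without a test. The rule of choice also named the family's distal regions, scores of region pairs and motif scores. Earlier results of these data were known, so p-values for these are no independent support for the choice.

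Nuclei came from mammary cells of CD1 mice, an outbred strain, sorted for the epithelial surface protein EpCAM and against lineage markers of other cell types. The fetal group was taken at embryonic day 18 and the adult group at 8 weeks of age, both wild type by the labels with no treatment named, with 2 libraries labelled as biological replicates per stage. Single-nucleus ATAC-seq, in which the Tn5 transposase tags open chromatin and barcodes tell nuclei apart, gave 882 and 1695 kept nuclei in fetal replicates 1 and 2 and 2465 and 2804 in adult replicates 1 and 2. These held 6028168 to 19304830 reads per library, fetal replicate 1 being the shallowest, and no barcode was shared between libraries. The labels do not say whether a library pooled several animals.

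The authors' deposited table placed each nucleus in 1 of 14 classes without names. By marker genes, classes 1 and 8 (adult) and 4 (fetal) were basal-like, the outer contractile and keratin 5 and 14 expressing layer. Classes 3 and 7 (adult) and 5 and 9 (fetal) were luminal progenitor-like, and classes 2 and 11 (adult) were mature luminal-like, the hormone-sensing layer. Class 10 was luminal-like and class 6 stromal-like, while classes 12 and 13 (fetal) and 14 (adult) kept no name. Class 14 had 6 of 8 basal and 5 of 6 mature luminal markers raised, and so met the naming rule for both. Irx4 itself stood among the 10 leading genes of classes 1 and 8, and the classes were made from the same reads, so no class was tested against another. The mature luminal-like share of nuclei was 40.6% and 38.3% in adult replicates 1 and 2, and no fetal class received that name. The basal-like share was 13.6% in adult replicate 1 and 25.5% in adult replicate 2.

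As background, Iroquois proteins set regional identity in the neural tube, heart, limb and lung. Irx4 is known from the ventricle of the heart, Irx3 and Irx5 act together in heart and limb, and Irx6 is known from the retina. Vertebrate Irx clusters are gene-poor and hold many conserved regulatory sequences far from the genes. The spans of the genes on mm10, as the files' build is named, were chr13:71958232-71963723 for Irx1, chr13:72624430-72634196 for Irx2, chr13:73259589-73269622 for Irx4, chr8:91798511-91801654 for Irx3, chr8:92357796-92361456 for Irx5 and chr8:92674289-92680956 for Irx6. The IrxA cluster with its flanks covered 1315 kb and the IrxB cluster 886.4 kb.

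The sequences before Irx2, Irx4 and Irx3 are shown to give the promoter context of the levels that follow, for the 3 of the 6 genes that RefSeq promoter sequences (GRCm38.p6, the assembly that mm10 names) matched. The 250 bases before each start are printed 5′ to 3′ on the gene's strand with CpG dinucleotides in capitals. Each lies within a listed promoter region.
Irx2, chr13:72628570-72628819, plus strand: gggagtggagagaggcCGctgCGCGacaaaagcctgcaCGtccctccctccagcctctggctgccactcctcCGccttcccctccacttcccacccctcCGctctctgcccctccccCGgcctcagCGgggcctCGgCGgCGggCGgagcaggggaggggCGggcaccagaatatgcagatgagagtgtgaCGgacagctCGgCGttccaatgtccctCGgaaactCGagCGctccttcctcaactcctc
Irx4, chr13:73260247-73260496, plus strand: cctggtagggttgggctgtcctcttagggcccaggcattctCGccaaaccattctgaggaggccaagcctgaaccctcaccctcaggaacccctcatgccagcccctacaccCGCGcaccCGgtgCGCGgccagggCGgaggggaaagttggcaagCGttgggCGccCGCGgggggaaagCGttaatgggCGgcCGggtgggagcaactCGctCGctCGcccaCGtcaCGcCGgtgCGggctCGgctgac
Irx3, chr8:91801655-91801904, minus strand: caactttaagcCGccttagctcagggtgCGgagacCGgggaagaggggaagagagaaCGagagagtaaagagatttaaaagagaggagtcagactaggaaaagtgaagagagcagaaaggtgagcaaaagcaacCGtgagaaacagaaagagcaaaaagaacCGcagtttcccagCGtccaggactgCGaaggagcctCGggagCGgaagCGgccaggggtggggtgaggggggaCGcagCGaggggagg
The stretch before Irx4 held 22 CpG, that before Irx2 19 and that before Irx3 13, against a median of 6 over all 32851 promoter windows in the table. Fewer CpG were present in 85.2%, 80.3% and 68.5% of windows, in that order. The GC box GGGCGG, searched on both strands, was present before Irx2 and Irx4 and in 32.7% of all windows. The letters ACANNTGT, a core reported for Iroquois proteins, were in none of the 3 stretches and in 6.31% of all windows, and neither TGANTCA (the AP-1 site, 6.75% of windows) nor TATAAA (12.4% of windows) was found in them.

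Irx4 was the Iroquois gene that differed most between lineages. In adult nuclei its span received 127 ± 2.51 reads per 1000000 reads over all protein-coding gene spans (CPM; mean ± SD, n = 2) in basal-like nuclei, against 8.16 ± 2.77 in luminal progenitor-like and 8.5 ± 0.586 in mature luminal-like nuclei. The level in adult basal-like nuclei was thus 15.6-fold and 15-fold higher. Over 18808 protein-coding genes, only 2 had a larger log2 difference between adult basal-like and all named adult luminal nuclei, with 2 added to each CPM, which ranked Irx4 at place 3. Both basal-like libraries were above both luminal values for 23.8% of those genes, so the absence of overlap by itself was common.

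In fetal nuclei the same contrast was smaller. Irx4 reached 51.1 and 53.4 CPM in the fetal basal-like nuclei of replicates 1 and 2, and 12.7 and 29.3 CPM in fetal luminal progenitor-like nuclei, a 2.49-fold difference of the means. The 2 fetal luminal progenitor-like values were far apart, and the higher one came from replicate 2. Fetal class 12, which kept no name, had 45.7 and 61.1 CPM, as high as the fetal basal-like class. Adult basal-like nuclei were therefore 2.44-fold above fetal basal-like nuclei, while adult luminal progenitor-like nuclei were 2.57-fold below their fetal counterparts. Neither pair of groups overlapped between libraries, as was the case for 47.7% of all genes in basal-like and 58% in luminal progenitor-like nuclei. Without fetal replicate 2 the ratio in luminal progenitor-like nuclei came to 1.55. Adult class 3 (22.4 and 8.84 CPM) overlapped fetal classes 9 (9.58 and 29.7) and 5 (20.3 and 28.3), while adult class 7 lay below both.

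By class, the order for Irx4 began with adult basal-like classes 1 (129 ± 6.45 CPM) and 8 (125 ± 2.3 CPM), which overlapped each other and stood apart from the rest. Classes 14, 12 and 4 followed at 53.8 ± 9.05, 53.4 ± 10.9 and 52.2 ± 1.62 CPM and overlapped in that order. Every other class lay at or below 27.3 ± 11 CPM, and class 10 was lowest at 2.02 ± 2.85 CPM, from 0 reads in one library. Classes 1, 8, 14, 12 and 4 were thus the highest for Irx4. These classes also had the highest summed level of the 8 basal markers, 1210 CPM in class 1, 1082 in class 8 and 511 to 568 in classes 12, 14 and 4. Among the other classes, at 114 to 329 CPM of basal markers, Irx4 followed the markers only in part. Fetal luminal progenitor-like classes 5 and 9 had 24.3 ± 5.68 and 19.6 ± 14.2 CPM of Irx4, and 284 and 329 CPM of basal markers. Class 13 had 27.3 ± 11 CPM of Irx4 and 179 CPM of basal markers. Class 10 had 2.02 ± 2.85 and 191 CPM, and class 2 had 7.38 ± 0.752 and 114 CPM. Whether reads from basal nuclei contribute to the low Irx4 level in luminal classes was not tested. Class 3 had 15.6 ± 9.56 CPM of Irx4 and 320 CPM of basal markers, and class 7, also luminal progenitor-like, had 3.98 ± 0.142 CPM and 202 CPM.

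**Figure D1:**
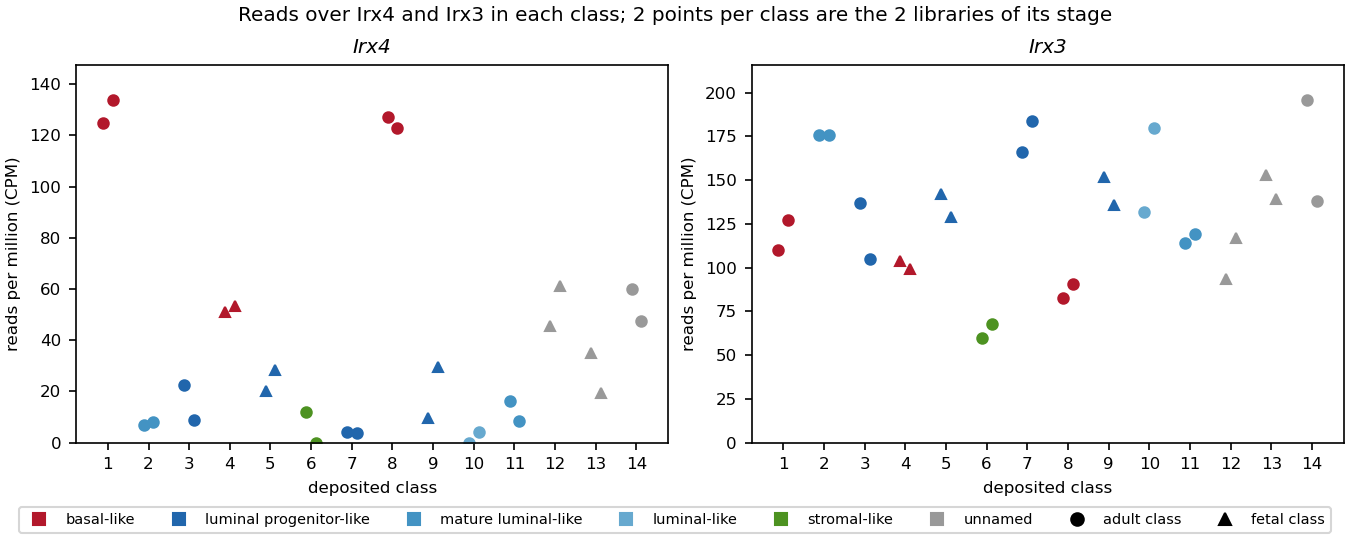
Reads over Irx4 (left) and Irx3 (right) in each of the 14 deposited classes, in CPM on the vertical axis, with 1 point for each of the 2 libraries of the class's stage; colour gives the name of the class by markers, circles adult and triangles fetal classes. Classes 1 and 8 stand above all others for Irx4, while Irx3 is lowest in the stromal-like class 6 and in basal-like class 8.

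The promoter region of Irx4, chr13:73260190-73261189, was most open in basal-like nuclei on the scale of reads per 1000000 promoter reads. It lies within the counted span, so its reads are part of those behind the levels above. It reached 52.1 and 76.4 CPM in adult basal-like, 4.18 and 3.28 in adult luminal progenitor-like, 7.76 and 6.27 in adult mature luminal-like, 59.4 and 45.2 in fetal basal-like and 6.09 and 21.6 in fetal luminal progenitor-like nuclei. Fetal class 12 had 26.1 and 46.1 CPM there, overlapping the fetal basal-like values with a lower mean. A further listed promoter region inside the gene, chr13:73261595-73262594, had 45 reads in adult basal-like, 4 in adult mature luminal-like and 0 in adult luminal progenitor-like nuclei. Fetal basal-like nuclei had 9.9 and 8.36 CPM there, below the 46.6 and 32.4 CPM of adult basal-like nuclei, although at the start itself the fetal and adult basal-like values overlapped.

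Summed over all nuclei of a library, Irx4 had 23.6 and 37.4 CPM in fetal and 23.3 and 33.4 CPM in adult libraries, and the stages overlapped. In adult replicates 1 and 2 the higher library was the one with the larger share of basal-like nuclei. Without fetal replicate 2 the log2 difference turned from 0.11 to -0.27, and without adult replicate 1 to -0.13.

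Irx1, Irx2, Irx3 and Irx5 had over 50 CPM in every lineage, and Irx6 had few reads in all of them. Summed over the classes of a lineage, Irx3 was lower in basal-like than in luminal nuclei at both ages, the opposite direction from Irx4. In adult nuclei it had 97.6 and 111 CPM in basal-like, 156 and 147 in luminal progenitor-like and 162 and 155 in mature luminal-like nuclei. In fetal nuclei it had 104 and 99.4 CPM in basal-like and 149 and 134 in luminal progenitor-like nuclei. The basal-like libraries lay below both luminal libraries at each age, as they did for 37.4% of all genes in the adult and 28.8% in the fetus. Within a lineage, fetal and adult values of Irx3 overlapped in basal-like and in luminal progenitor-like nuclei. Classes of one name differed. Adult basal-like class 1, with 110 and 127 CPM, overlapped luminal progenitor-like class 3 (137 and 105) and mature luminal-like class 11 (114 and 119), while basal-like class 8 had 82.6 and 90.4 and luminal progenitor-like class 7 had 166 and 184. Mature luminal-like classes also differed, with 176 ± 0.66 CPM in mature luminal-like class 2 and 117 ± 3.94 in class 11. The share of promoter reads among all reads in listed regions moved with Irx3 in all 3 pairs of adult classes of one name. It was 36.2% in class 2 and 32.8% in class 11, 36.7% in class 1 and 32% in class 8, and 39.1% in class 7 and 34.7% in class 3, and its part in these differences was not tested.

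Irx1 was lower in fetal than in adult nuclei of both shared lineages. It had 119 and 103 CPM in adult basal-like nuclei but 56.7 and 60.2 in fetal basal-like nuclei, 1.9-fold lower, with no overlap. Fetal luminal progenitor-like nuclei had 80.5 and 92 CPM, 1.31-fold below the 105 and 121 of adult ones. Fetal and adult libraries did not overlap for 47.7% of all genes in basal-like and 58% in luminal progenitor-like nuclei. Adult basal-like and luminal progenitor-like values overlapped, and mature luminal-like nuclei had 78 and 75.2. Among the 14 classes fetal basal-like class 4 was lowest, at 58.5 ± 2.44 CPM, next to stromal-like class 6 at 60.1 ± 8.07, and those overlapped.

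Irx2, the neighbour of Irx1, had 236 and 216 CPM in adult basal-like nuclei, 197 and 192 in adult luminal progenitor-like, 193 and 177 in mature luminal-like, 139 and 157 in fetal basal-like and 165 and 159 in fetal luminal progenitor-like nuclei. Adult basal-like nuclei were the highest, by 1.53-fold over the fetal basal-like class. Over the 14 classes the log2 levels of Irx1 and Irx2 had a Pearson r of 0.72, against -0.06 for Irx1 with Irx4 and 0.23 for Irx2 with Irx4. In IrxB, r was 0.68 for Irx3 with Irx5, and -0.28 and -0.20 for Irx6 with Irx3 and Irx5. Between the clusters r reached 0.65 for Irx2 with Irx3 and 0.57 for Irx2 with Irx5, about as high as within them. These classes share libraries and depth, so the values are descriptions. A long non-coding gene, Gm20554, overlaps the counted span of Irx2, and the reads carry no strand.

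By lineage, Irx5 was the most evenly open gene of the family. It had 209 and 207 CPM in adult basal-like, 179 and 168 in adult luminal progenitor-like, 215 and 181 in mature luminal-like, 210 and 199 in fetal basal-like and 215 and 216 in fetal luminal progenitor-like nuclei. Stromal-like class 6 was lowest at 122 ± 7.27 CPM. Adult classes of one name differed, with 236 ± 1.89 CPM in basal-like class 1 against 174 ± 0.281 in class 8. Mature luminal-like classes 2 and 11 had 214 ± 19.1 and 160 ± 15.4 CPM, and luminal progenitor-like classes 7 and 3 had 191 ± 2.92 and 149 ± 14.7. Over the 14 classes the log2 range of Irx5, 0.968, was close to the 0.981 of Irx1. Per kilobase of counted span, Irx5 was also the most open of the 6 genes, with 22.6 to 28.3 CPM per kb across the named lineages and class 12, against 14.2 to 22.2 for Irx3, 10.7 to 16.4 for Irx2, 6.16 to 11.9 for Irx1, 0.581 to 9.07 for Irx4 and 0.987 to 2.56 for Irx6. The flank of Irx5 reaches into the long non-coding gene Crnde. On the gene span alone, or within 1 kb of the start, the difference of adult basal-like from luminal nuclei changed sign, from 0.15 to -0.05 on the log2 scale in each case.

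Irx6 had few reads in every lineage, 579 over all libraries. Its highest lineage mean was that of fetal basal-like nuclei, with 35.5 and 19.2 CPM from 25 and 42 reads, which overlapped fetal class 12 with 6.24 and 19.3, and all named adult lineages lay between 8.69 and 15 CPM. The 2 fetal libraries were far apart. Classes of one name differed, with 21.3 and 19.8 CPM in mature luminal-like class 11 against 5.14 and 7.91 in class 2, and 23.7 and 15.8 CPM in basal-like class 1 against 3.67 and 8.43 in class 8. Most neighbours in the order of classes overlapped.

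**Figure D2:**
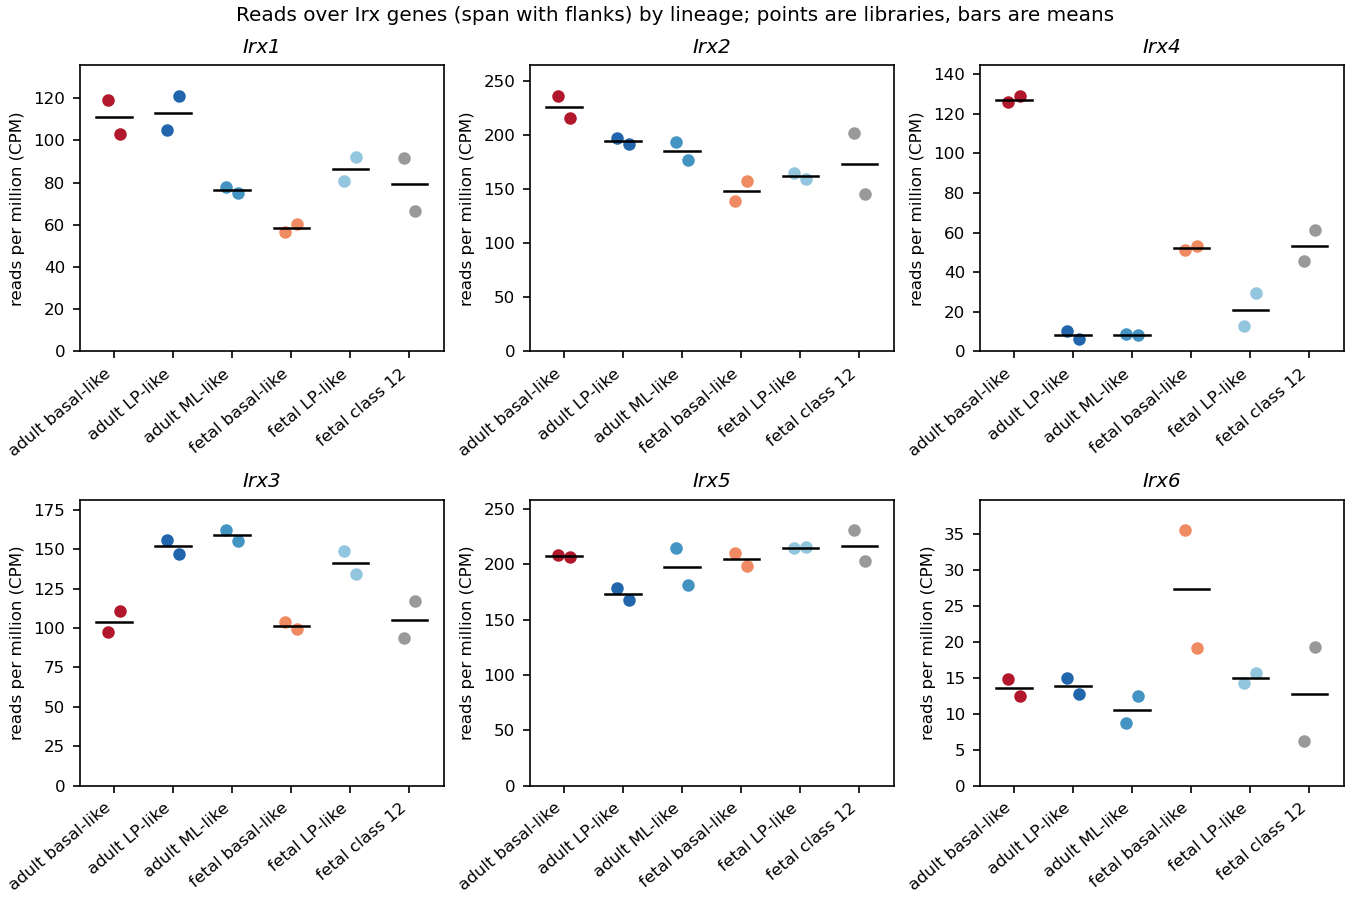
Reads over each Iroquois gene with 2 kb flanks by lineage, in CPM, with 1 point per library and a bar at the mean; LP is luminal progenitor-like and ML mature luminal-like. Irx4 stands out by its adult basal-like level of 127 CPM against 8.16 and 8.5 in adult luminal nuclei, while Irx5 lies between 168 and 231 CPM throughout.

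Over whole libraries, 5 of the 6 genes had no overlap between stages, but this also held for 60.9% of 18808 protein-coding genes (32% higher in both fetal and 28.9% in both adult libraries). Irx1 was lower in fetal (76.9 and 82.2 CPM) than in adult libraries (92.2 and 94.8 CPM). Irx2 likewise had 167 and 154 CPM in fetal and 196 and 189 in adult libraries, and Irx3 had 134 and 123 against 148 and 141. In the opposite direction, Irx5 had 215 and 207 CPM in fetal and 196 and 183 in adult libraries, and Irx6 had 16.9 and 16.7 against 12.6 and 12. For Irx5 and Irx6 the log2 differences of 0.16 and 0.45 came to 0.04 and 0.06 on the gene span alone. The deposited gene accessibility scores name no sample and cover 5 of the genes. In them Irx5 averaged 21.9 (the 97.4th percentile of 11327 genes), Irx3 17.5 (94.8), Irx1 11 (83.2), Irx4 4.1 (36.7) and Irx2 2.26 (18.5). Irx2 was thus below Irx4 in these scores, the reverse of their order by reads over the gene spans.

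The promoter regions of the family lie within the counted gene spans, so their stage differences are given without a p-value or a call and support nothing further. The promoter region of Irx3, chr8:91800991-91801990, had 218 and 219 CPM in fetal and 284 and 259 CPM in adult libraries, a log2 fold change, fetal over adult, of -0.31 (SE 0.109). Fetal libraries were both below adult libraries. By lineage the region was highest in adult mature luminal-like nuclei, at 336 and 307 CPM. It had 208 and 226 CPM in fetal basal-like against 195 and 199 in adult basal-like nuclei, and 235 and 227 CPM in fetal against 251 and 250 in adult luminal progenitor-like nuclei. The log2 differences were -0.14 for Irx1, -0.12 for Irx2, 0.51 for Irx4 and 0.03 for Irx5.

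No listed promoter region held the start of Irx6, taken as the gene end nearest such a region. The region just before that end, chr8:92673073-92674072, had 41.8 and 36.3 CPM in fetal and 23.9 and 25.7 in adult libraries (log2 0.64, SE 0.245). By lineage it was highest in fetal basal-like nuclei, at 99 and 53.5 CPM. The region just after it, chr8:92674308-92675307, had 8.91 and 9.36 CPM in fetal and 11.2 and 9.42 in adult libraries (log2 -0.16).

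The distal regions of the clusters differed between the stages at many positions, in both directions. In IrxA 85 of 99 regions had enough reads to test, of which 9 were higher in fetal and 22 in adult nuclei, with a median log2 fold change of -0.22. In IrxB 80 of 100 were tested, of which 28 were higher in fetal and 14 in adult nuclei, with a median of 0.56. Over all 122865 tested distal regions 35.3% were called, 16.6% with fetal and 18.8% with adult nuclei higher, and the median was -0.01. The shares in IrxA were 10.6% and 25.9% and in IrxB 35% and 17.5%. Without any 1 library, which leaves 1 in its stage, fewer of all distal regions were called, and part of the calls here were lost. DESeq2 gave 4 fetal-higher and 15 adult-higher regions in IrxA, and 20 and 6 in IrxB. Over all 122865 tested distal regions it called 10847 fetal-higher and 14025 adult-higher, in place of 20351 and 23072 with edgeR. Regions below an average of 10 reads were not tested. Of the tested regions 10 in IrxA and 3 in IrxB overlapped the counted gene spans, and they held 1 fetal-higher and 2 adult-higher calls in IrxA and 1 fetal-higher call in IrxB. Those named below are given without a p-value.

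Because reads were summed over the nuclei of a library, the share of a cell type and the accessibility within it cannot be told apart in these fold changes. Of the 22 adult-higher regions of IrxA, 10 were highest in mature luminal-like nuclei, with both libraries of that lineage above all others, as were 5 of the 14 in IrxB. Mature luminal-like nuclei were highest at 57.9% of all adult-higher distal regions and at 15.6% of all tested ones. That lineage has no fetal class. Of the 28 fetal-higher regions of IrxB, 6 were highest in fetal class 12, 2 in fetal basal-like and 1 in fetal luminal progenitor-like nuclei, and in 19 no lineage stood apart. Among all fetal-higher distal regions the shares of these 3 lineages were 13.4%, 7.41% and 8.33%, and among all tested ones 3.99%, 3.08% and 2.23%. No lineage stood apart in 70.1% of all fetal-higher and 63.1% of all tested distal regions.

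Along IrxA, the interval of 661 kb between Irx1 and Irx2 held 2 fetal-higher and 11 adult-higher regions of 35 tested, and the 625 kb between Irx2 and Irx4 held 7 and 9 of 43. Along IrxB, the 556 kb between Irx3 and Irx5 held 19 fetal-higher and 12 adult-higher regions of 56, and the 313 kb between Irx5 and Irx6 held 9 and 2 of 22. As shares, fetal-higher and adult-higher regions were 5.71% and 31.4% between Irx1 and Irx2, 16.3% and 20.9% between Irx2 and Irx4, 33.9% and 21.4% between Irx3 and Irx5 and 40.9% and 9.09% between Irx5 and Irx6, beside 16.6% and 18.8% of all distal regions.

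**Figure D3:**
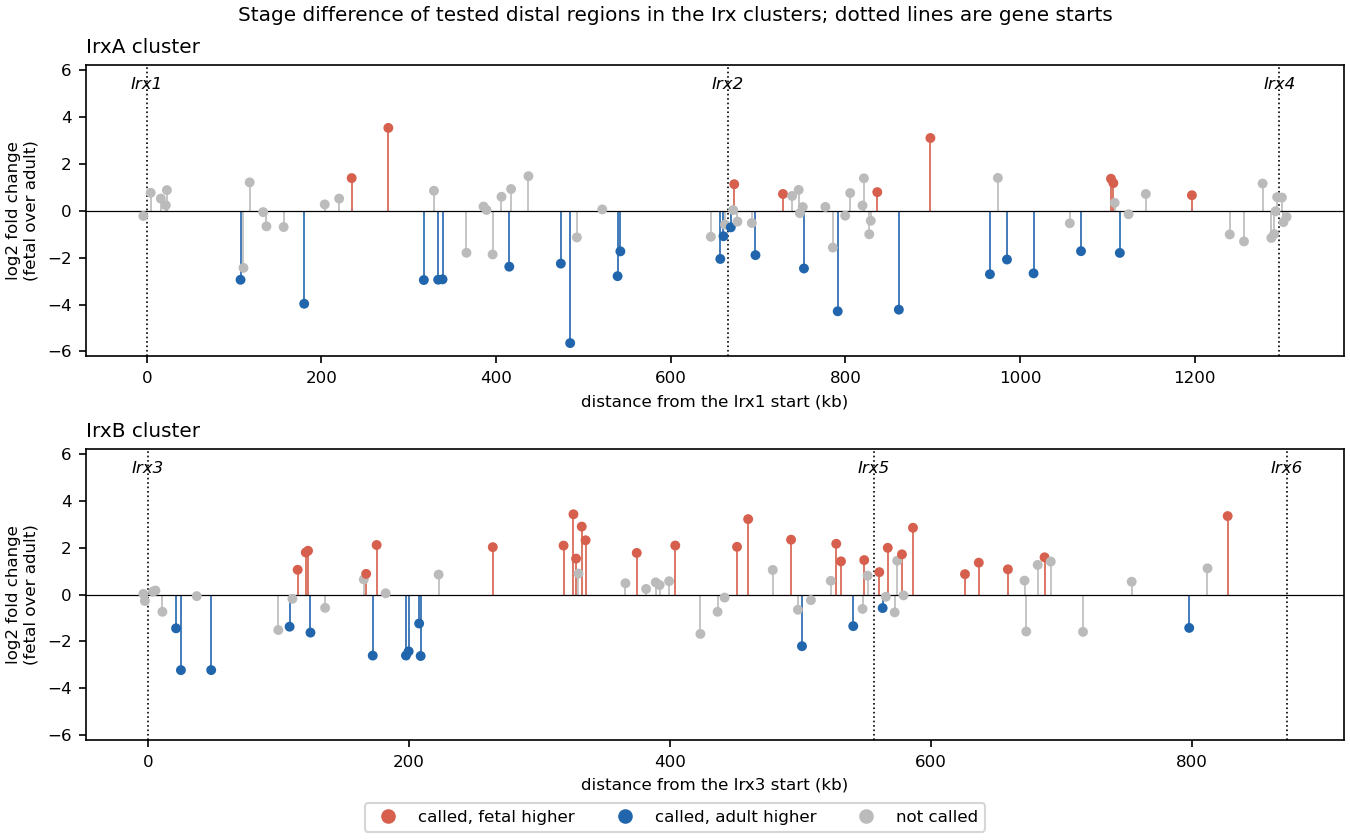
Log2 fold change of each tested distal region, fetal over adult, against its distance from the Irx1 start (IrxA, top) or the Irx3 start (IrxB, bottom) in kb, with red for called fetal-higher, blue for called adult-higher and grey for regions not called. Adult-higher regions prevail in IrxA, with 22 against 9, and fetal-higher regions in IrxB, with 28 against 14.

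The 4 named adult-higher regions of IrxA, those with the largest fold changes, were all at regions most open in mature luminal-like nuclei. At chr13:72448069-72449068, 180 kb before the Irx2 start and in no annotated gene, the libraries had 0.856 and 0.646 CPM (fetal) and 38.5 and 34.4 CPM (adult), log2 -5.64 (SE 0.419; edgeR, adjusted p = 4.74e-13). In mature luminal-like nuclei it had 73.4 and 71.6 CPM (per 1000000 distal reads), against 1 and 0.975 in adult luminal progenitor-like and no read in adult basal-like nuclei. Both fetal libraries were thus near the level of adult luminal progenitor-like nuclei. The regions chr13:72754384-72755383 (log2 -4.29, edgeR adjusted p = 3.07e-06) and chr13:72824362-72825361 (-4.22, 4.23e-08), 126 and 196 kb after the Irx2 start, were also highest in mature luminal-like nuclei. At chr13:72143528-72144527, 180 kb from Irx1, there were 3 fetal and 81 adult reads, an adult-to-fetal ratio of 17.6 with a 95% counting interval of 5.8 to 86.9.

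Fetal-higher regions of IrxA were fewer. At chr13:72239865-72240864, 277 kb from the Irx1 start, the libraries had 13.7 and 11.1 CPM (fetal) and 0.365 and 1.57 CPM (adult), log2 3.53 (SE 0.528; edgeR, adjusted p = 1.33e-06). At chr13:72860522-72861521, 232 kb after the Irx2 start, fetal libraries had 12.8 and 16.5 CPM and adult libraries 2.55 and 1.05 (log2 3.10, edgeR adjusted p = 8.45e-07). At chr13:73067254-73068253, 193 kb before Irx4, the difference was smaller (1.36, 0.00915) and was lost with DESeq2 (adjusted p = 0.0906) and without either adult library (0.0737 and 0.0646).

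The most open distal region of IrxA was chr13:72197904-72198903, 235 kb from Irx1, and it too was higher in fetal nuclei. It had 139 and 111 CPM in fetal and 41.8 and 52.9 CPM in adult libraries (log2 1.39, SE 0.181, edgeR adjusted p = 9.33e-08). By lineage it had 187 and 164 CPM in fetal class 12, 117 and 103 in fetal basal-like, 112 and 127 in adult basal-like, 55.1 and 41.4 in adult luminal progenitor-like and 9.73 and 18.9 in mature luminal-like nuclei. Fetal and adult basal-like nuclei overlapped there, whereas fetal luminal progenitor-like nuclei, at 139 and 105 CPM, lay above adult ones. The other most open regions were chr13:72639592-72640591, 11.3 kb after the Irx2 start (log2 -0.46, edgeR adjusted p = 0.0595), and chr13:73159924-73160923, 100 kb before Irx4 (0.66, 0.0158). The call of the latter was lost with DESeq2 (adjusted p = 0.0995) and without fetal replicate 1 (0.16) or adult replicate 1 (0.166). The former was highest in adult luminal progenitor-like nuclei, as were 5.99% of all tested regions.

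In IrxB the 4 named fetal-higher regions had Irx5 or Irx6 as the nearest Iroquois gene. At chr8:92628618-92629617, 45.2 kb before the Irx6 start, the libraries had 12 and 12.4 CPM (fetal) and 0.365 and 1.83 CPM (adult), log2 3.35 (SE 0.518; edgeR, adjusted p = 2.46e-06). At chr8:92387412-92388411, 30.1 kb after the Irx5 start, they had 13.3 and 19.9 against 2.01 and 2.62 CPM (2.85, 5.11e-07). Both regions were highest in fetal class 12. At chr8:92133503-92134502 (2.90, edgeR adjusted p = 4.82e-06) no lineage stood apart, and at chr8:92293961-92294960 (2.34, 2.93e-05) fetal luminal progenitor-like nuclei did, with 18.7 and 15.8 CPM against 5.01 and 4.88 in adult luminal progenitor-like nuclei.

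The 4 named adult-higher regions of IrxB lay within 198 kb upstream of Irx3. At chr8:91826259-91827258, 25.1 kb upstream of Irx3 and within the antisense gene Irx3os, the libraries had 2.57 and 1.29 CPM (fetal) and 19.2 and 13.1 CPM (adult), log2 -3.22 (SE 0.461; edgeR, adjusted p = 6.05e-07). Adult luminal progenitor-like (18 and 12.2 CPM) and mature luminal-like nuclei (18.7 and 17.7 CPM) shared this openness, and adult basal-like nuclei had 0 and 6.81 CPM. At chr8:91849467-91850466, also in Irx3os and 48.3 kb upstream, fetal libraries had 0 and 1.78 CPM and adult libraries 10.6 and 12.4 (-3.22, edgeR adjusted p = 1.11e-05), with mature luminal-like nuclei highest. The regions chr8:91973294-91974293 (-2.60, edgeR adjusted p = 4.79e-05) and chr8:91998769-91999768 (-2.60, 8.82e-05) lay 172 and 198 kb upstream. Luminal progenitor-like nuclei of the adult had no read in the former.

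The most open distal regions of IrxB were close to the genes or between them. At chr8:92361598-92362597, just past the end of Irx5, the libraries had 66.3 and 65.9 CPM (fetal) and 32.5 and 35.6 CPM (adult), log2 0.95 (SE 0.194). In this region adult basal-like nuclei, at 64.7 and 78.6 CPM, were as high as fetal luminal progenitor-like nuclei, at 65.6 and 67 CPM, while both adult luminal lineages were between 20.5 and 26.4 CPM. At chr8:91921981-91922980, 121 kb upstream of Irx3, fetal libraries had 71.5 and 64.6 CPM and adult libraries 16.8 and 22 (1.79, edgeR adjusted p = 1.16e-08). The region past the end of Irx3, chr8:91797465-91798464, had 45.8 and 45.5 CPM in fetal and 42.9 and 46.5 in adult libraries (log2 0.03), and the stages overlapped.

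Several distal regions around Irx4 were most open in adult basal-like nuclei. IrxA had 10 of 85 tested regions (11.8%) highest in adult basal-like nuclei with both libraries above all other lineages, against 6.05% of all tested distal regions. Tested regions that overlap the counted gene spans share reads with the gene levels. At chr13:73255648-73256647, 4.35 kb before the Irx4 start, adult basal-like nuclei had 18.7 and 17.3 CPM, adult luminal progenitor-like 1 and 0.975 CPM and mature luminal-like nuclei no read. Fetal basal-like nuclei had 0 and 6.27 CPM in this region. At chr13:73264741-73265740, in the gene span, adult basal-like nuclei had 15.8 and 30.9 CPM and fetal basal-like nuclei 4.89 and 4.7. At chr13:73257495-73258494, 2.5 kb before the start, fetal class 12 (39 and 25.6 CPM) and fetal basal-like nuclei (31.8 and 16.5 CPM) were closer to the adult basal-like values of 50.3 and 35.3 CPM. Summed over libraries, the first of these did not pass the stage test (log2 -0.03, edgeR adjusted p = 0.978), and the others, within the counted span, had log2 differences of -0.49 and 0.58. IrxB had 6 of 80 regions (7.5%) highest in adult basal-like nuclei and 8 (10%) highest in fetal class 12, against 3.99% of all regions for the latter.

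Co-accessibility linked the Iroquois genes to these regions very unevenly. The authors' deposited Cicero scores, which rise when the regions of a pair tend to be open in the same nuclei, were pooled over all nuclei and have no replicates. A score of at least 0.1 was reached by 2.63% of all 6359756 pairs, by 5.2% of pairs within IrxA and by 3.96% of pairs within IrxB. For pairs with an end at the gene or within 2 kb, this held for 49 of 420 at Irx4 (11.7%), 19 of 153 at Irx5 (12.4%), 19 of 395 at Irx3 (4.81%), 10 of 309 at Irx2 (3.24%), 1 of 135 at Irx1 (0.741%) and 0 of 162 at Irx6, where the highest score was 0.0675. Several pairs of a gene share an end, so they are not independent.

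The highest scores of Irx4 joined the region at chr13:73257495-73258494 to the promoter of Slc6a3, the dopamine transporter gene, 276 kb away (0.4876), to the region 4.35 kb before the Irx4 start (0.4662) and to chr13:73071472-73072471, 189 kb before the start (0.3542). The Irx4 promoter itself scored 0.3108 with the last of these. That region had 43.1 and 29.7 CPM in adult basal-like nuclei, 12 and 9.75 in adult luminal progenitor-like and 0.811 and 0.592 in mature luminal-like nuclei. Fetal basal-like nuclei had 14.7 and 18 CPM and fetal class 12 had 7.81 and 34.9, so class 12 overlapped adult basal-like nuclei.

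At Irx5 the highest scores joined the region past its end to chr8:92488271-92489270 (0.3994), 131 kb after the start, and to chr8:92129150-92130149 (0.3107) and chr8:92190214-92191213 (0.2892), 228 and 167 kb before it. The first of these had 47.9 and 45.9 CPM in fetal and 12 and 18.7 in adult libraries (log2 1.59, edgeR adjusted p = 1.16e-06). By lineage it had 60.4 and 72.4 CPM in adult basal-like and 105 and 62.7 in fetal basal-like nuclei, but 4.46 and 5.03 in mature luminal-like nuclei. Over the Irx5 span itself the same lineages had 208, 205 and 198 CPM.

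The Irx3 promoter had its highest score, 0.2865, with the region in Irx3os 48.3 kb upstream that was higher in adult nuclei. Next came a score of 0.2763 with chr8:91576403-91577402 in the span of Fto, 225 kb from the Irx3 start, and one of 0.2265 with chr8:91736655-91737654, between Fto and Irx3. Fto encodes an RNA demethylase, and its introns are known to hold distant regulatory sequence for Irx3. Of 140 scored pairs between Irx3 and regions in the span of Fto, 8 reached 0.1. The partner in Fto had 7.27 and 3.23 CPM in fetal and 27.4 and 26.1 in adult libraries (log2 -2.53, SE 0.341, edgeR adjusted p = 1.96e-07). It was highest in mature luminal-like nuclei, at 49.1 and 42 CPM, against 5.01 and 5.85 in adult luminal progenitor-like nuclei. The Irx3 promoter, the other end of this pair, differed in the same direction by less. On the scale of promoter reads it had 336 and 307 CPM in mature luminal-like and 251 and 250 in adult luminal progenitor-like nuclei. Over the whole Irx3 span the libraries of those lineages overlapped. The span of Fto held 63 distal regions, of which 12 of 57 tested (21.1%) were higher in fetal and 7 (12.3%) in adult nuclei, or 33.3% called against 35.3% of all distal regions. The Fto promoter did not differ detectably (log2 0.00, edgeR adjusted p = 0.993).

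At Irx2 the highest scores were 0.1861 and 0.1415 for regions beside the promoter and 0.1485 for the promoter with chr13:72714351-72715350, 86 kb away. Irx1 had a single score above 0.1, of 0.2572, between a region in its span and one 9.45 kb from its start outside the cluster. The only scored pairs between Iroquois genes were those of Irx5 with Irx6, at most 0.0134. Pairs of more distant genes lie beyond the reach of the listed pairs.

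**Figure D4:**
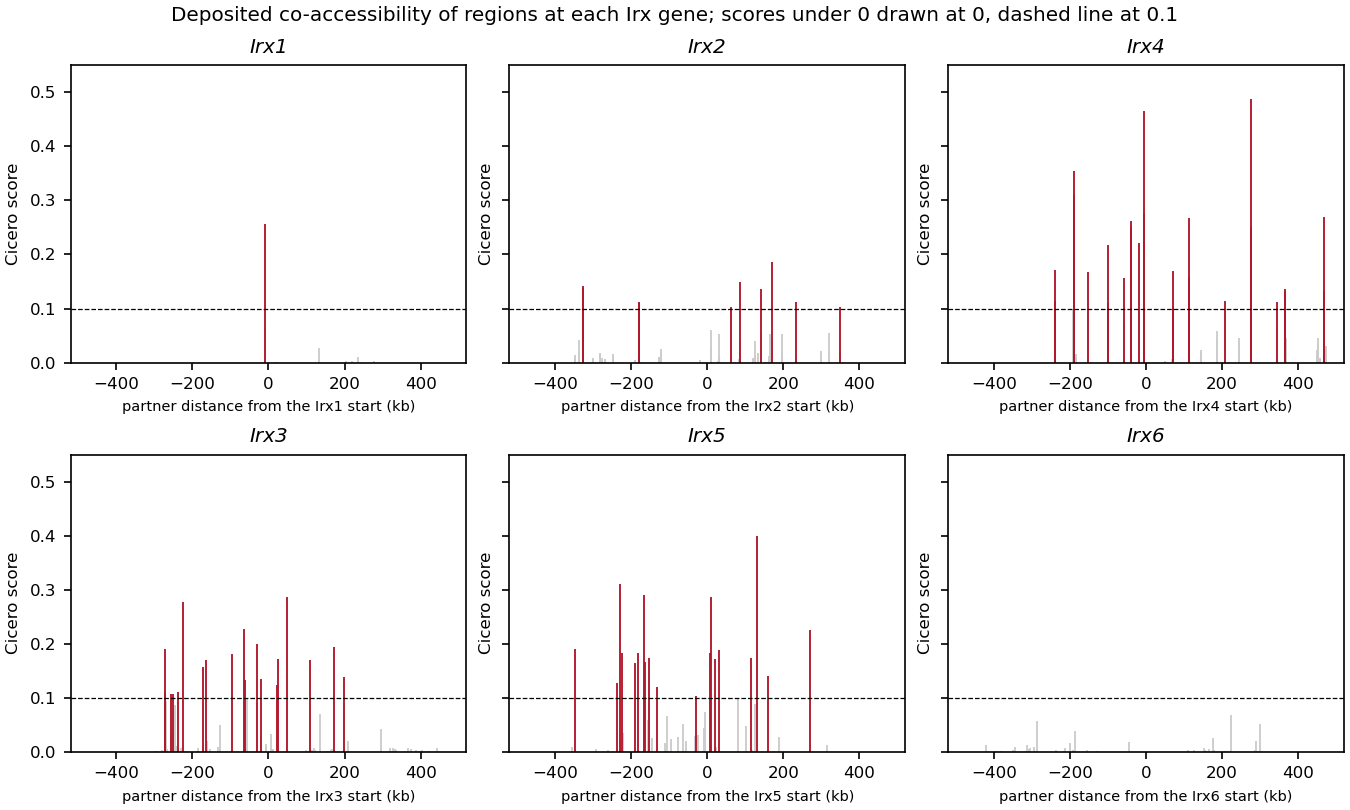
Deposited Cicero scores of all pairs with an end at each Iroquois gene, plotted against the distance of the partner region from the gene start in kb, with red lines for scores of at least 0.1. Irx4, Irx5 and Irx3 have many partners above 0.1 on both sides, Irx1 has 1 and Irx6 none.

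The authors' deposited motif scores are chromVAR deviations, relative values near 0 that compare reads in regions holding a motif with background regions, and 5 of their 427 columns carry Iroquois names (none for Irx6). Only the Irx4 column passed the stage test. It averaged 0.254 and 0.214 in fetal and -0.137 and -0.103 in adult libraries, a difference of 0.35 (SE 0.0458, limma adjusted p = 0.0012), in a table where 67.9% of columns were called (32.3% fetal-higher and 35.6% adult-higher). Fetal libraries were both above adult libraries. The differences for Irx1 (-0.09, limma adjusted p = 0.163), Irx2 (-0.04, 0.469), Irx3 (0.04, 0.509) and Irx5 (-0.10, 0.11) did not pass.

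By lineage, the Irx4 column was lowest in mature luminal-like nuclei, at -0.295 and -0.311, and -0.0651 and -0.0924 in adult luminal progenitor-like nuclei. It was 0.0966 and 0.181 in adult basal-like, 0.237 and 0.188 in fetal basal-like and 0.225 and 0.197 in fetal luminal progenitor-like nuclei. Fetal luminal progenitor-like nuclei thus had as high a motif score as fetal basal-like nuclei. Their reads over the Irx4 gene were 2.49-fold lower by the means, at 12.7 and 29.3 CPM against 51.1 and 53.4 CPM. The Irx5 column was highest in mature luminal-like nuclei, at 0.13 and 0.146, with values between -0.105 and 0.0158 elsewhere. The Irx1 and Irx2 columns also had their highest lineage mean there, at 0.102 and 0.117 and at 0.0771 and 0.0943. Among single classes, stromal-like class 6 had a higher Irx2 mean (0.253) and fetal class 13 a higher Irx1 mean (0.124). Over 7846 nuclei the Irx3 and Irx5 columns had a Pearson r of 0.572, and the Irx4 column had 0.207 or less with the other 4. Motifs of related homeodomain proteins are alike, so a column does not point to the protein it is named for. The spread of the Irx columns over nuclei, with SDs of 1 to 1.04, ranked 255 or lower among the 427.

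**Figure D5:**
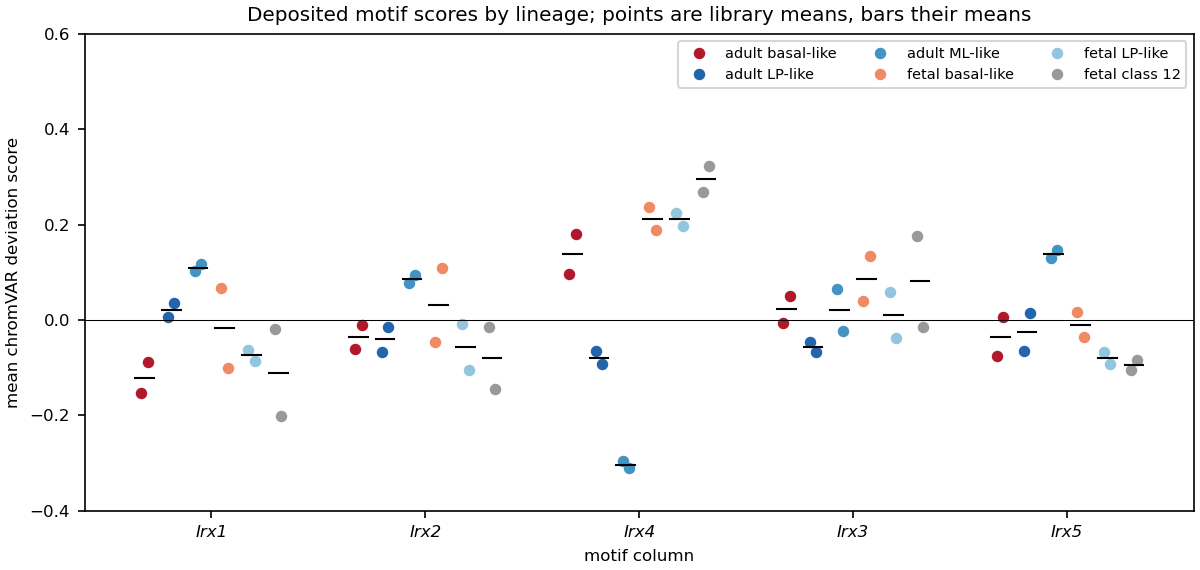
Mean chromVAR deviation score of the 5 Iroquois motif columns by lineage, with 1 point per library and a bar at the mean; LP is luminal progenitor-like and ML mature luminal-like. The Irx4 column separates fetal from adult luminal nuclei, and the Irx5 column is highest in adult mature luminal-like nuclei.

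The other TALE genes, Meis, Pbx, Pknox, Tgif and Mkx, encode homeodomain proteins related to the Iroquois family, and Meis and Pbx proteins are cofactors of Hox proteins. Of 10 listed TALE promoter regions, 4 were higher in fetal and none in adult nuclei, where 10.5% and 11% of all promoters were. These were Meis2 (log2 1.03, edgeR adjusted p = 0.00419), Pbx4 (0.98, 0.00058), Tgif2 (0.63, 0.0146) and Pknox1 (0.35, 0.0333). The median over the 10 was 0.18, against 0.00 for all promoter regions. Of 10 TALE motif columns, 3 were higher and 1 lower in fetal nuclei, beside 67.9% of all columns called in either direction. They were led by Pbx3, whose scores were 0.511 and 0.499 in fetal against -0.24 and -0.391 in adult libraries (limma adjusted p = 0.000181). The Pbx2 and Pbx4 columns hold identical values and are 1 measurement, and Pknox1 was lower by a difference of -0.16 (limma adjusted p = 0.0399).

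Genes with the pattern most like that of Irx4 over the 14 classes, by Pearson correlation of log2 CPM with 2 added, were Adamts18 (r = 0.957), a secreted metalloprotease gene, Gm3739 (0.956) and Apobec1 (0.949), among 13063 candidates. For Irx1 the closest was Vdr, the vitamin D receptor gene (0.908), and for Irx2 Ero1b (0.945). Irx3 was closest to Fam187b (0.956), with Pdcl3 (0.929) and Clu, which encodes clusterin (0.924), next. Irx5 was closest to Mrpl28 (0.904), and Irx6 to Otulinl (0.782). With 10 added in place of 2, 10 of the 18 genes in the leading 3 places stayed there.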

How the data were processed

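Single-nucleus ATAC-seq reads of 2 fetal and 2 adult libraries were used. Reads were deposited as positions with barcodes. Bowtie2, MACS2, bedtools and mm10 are named without a role in the submitters' processing notes, and any shift of cut sites is not given in the sources used here. The authors deposited counts of reads per nucleus, class numbers, and chromVAR and Cicero values, each a score without a physical unit, and the Cicero gene scores name no sample. All columns used were mapped to samples or are pooled, leaving 0 unmapped.

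Reads of listed nuclei were summed per library and counted in each region or span they overlapped by at least 1 base, without strand. Regions averaging 10 or more reads per library were tested, fetal against adult, with edgeR 4.0.16 (quasi-likelihood, TMM), and mean motif scores with limma 3.58.1, in R 4.3.3. All p-values were two-sided and Benjamini-Hochberg adjusted over all features, with a threshold of 0.05, and measure only the spread between these libraries. The SE of an edgeR fold change was derived as its size over the square root of F. DESeq2 1.42.0 was an alternative. Counting used Python 3.11.15. Region CPM by library is per 1000000 TMM-scaled reads in tested regions, and by lineage per 1000000 reads in all regions of that kind.

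A class was named where at least 3 markers, and no less than 50% of a list, lay 0.5 or more on the log2 scale above the mean of the other classes, for 1 cell type only (luminal-like for both luminal types). Doublets were not called. Starts of Irx1, Irx5 and Irx6 were the gene end nearest a listed promoter region. Regions named were, per cluster, up to 4 rises and 4 falls that were called, did not overlap and had a mean of at least 20 reads, and the 3 with the highest CPM. Regions by Irx4 and partners of links were named after their values were seen where they fall outside these rules. The genes and lists were chosen with earlier results of these data known. Counting intervals cover counting error only.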

Additional observations from a re-analysis of the deposited data

Results flagged for a closer look

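Effects in opposite directions were seen for Irx4, Irx2 and Irx5, and for Irx1 in 1 contrast that includes mature luminal-like nuclei. In each, every library was on one side in one group of nuclei and on the other side in the other. Each kind of reversal is given below with its share of all genes. The difference between the effects was not tested, and the lineages come from classes made from the same reads.

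For Irx4 the fetal level was 0.41 times the adult level in basal-like nuclei and 2.57 times the adult level in luminal progenitor-like nuclei, a kind of reversal seen for 7.91% of 18808 genes. The latter ratio was 1.55 without fetal replicate 2, and adult luminal progenitor-like class 3 overlapped the fetal classes.

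For Irx2 the basal-like level was 1.16 times the luminal progenitor-like level in adult nuclei and 0.914 times in fetal nuclei. The nearest fetal libraries of Irx2 were almost equal, at 157 CPM (basal-like) and 159 CPM (luminal progenitor-like). Single classes overlapped, with 226 and 189 CPM in adult basal-like class 8 beside 215 and 187 in luminal progenitor-like class 3, and 173 and 153 CPM in fetal luminal progenitor-like class 5 beside 139 and 157 in basal-like class 4. For Irx5 the same ratios were 1.2 and 0.951, but adult basal-like class 8 (174 and 174 CPM) lay below luminal progenitor-like class 7 (189 and 193), and class 1 (237 and 235) above it. This reversal was seen for 6.05% of all genes.

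Against all named luminal nuclei of the same age, the log2 difference of basal-like nuclei was 0.27 in the adult and -0.55 in the fetus for Irx1, 0.25 and -0.13 for Irx2, and 0.15 and -0.0716 for Irx5. Such a reversal was seen for 7.51% of all genes. In the fetus 58.3% of genes had a higher value than Irx2 and 52.1% a higher value than Irx5, so both lay near the middle of all genes. The adult luminal side includes mature luminal-like nuclei, which have no fetal class. Against luminal progenitor-like nuclei alone, adult basal-like nuclei had 0.98 times the level of Irx1 and the libraries overlapped, so no reversal was present for Irx1 on the lineages that both ages share. For Irx5 the adult excess was not seen on the gene span alone.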

How the results depend on the processing

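Of the 73 called Iroquois distal regions, 71 kept call and direction with DESeq2's size factors in edgeR, 68 with reads counted at their midpoint, 65 without a filter, 45 with DESeq2 and 27 when a mean of at least 50 reads was asked for, which tests fewer regions, and 48 to 60 without 1 library (60 and 54 without fetal replicates 1 and 2, 48 and 56 without adult replicates 1 and 2). None changed sign under any alternative run. Where counts moved by over 1.5 times, the cause was not tested. With DESeq2, calls were 24872 distal and 2622 promoter regions (43423 and 3992 with edgeR), 4 fetal-higher in IrxA and 6 adult-higher in IrxB. With the mean of 50 reads they were 15301 distal regions, 11 adult-higher in IrxA, and 9 fetal-higher and 4 adult-higher in IrxB. Calls of Iroquois promoters are not counted, since these regions lie within the counted gene spans. Leaving out each library in turn gave 30355 to 42172 distal and 2514 to 3057 promoter calls, 4 to 8 fetal-higher and 18 to 24 adult-higher regions in IrxA, 17 to 29 and 9 to 14 in IrxB, 0 to 1 Iroquois promoters, 209 to 265 motif columns and 1 Iroquois motif. At scores of at least 0.25 and above 0, 21 and 613 pairs of Iroquois genes were counted in place of 98, and 10 of 18 genes of like pattern remained with 10 added to CPM. The difference of Irx5 between adult basal-like and luminal nuclei turned to -0.0482 on the gene span alone and to -0.0482 near the start.

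Equal replicate numbers are not said to share a litter or day. The differences between replicates 1 and 2 had a correlation of 0.0576 between the stages over 28608 distal regions. With the replicate block, 40678 distal and 4294 promoter regions and 313 motif columns were called, and 68 of the 73 Iroquois distal calls were kept.

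Leaving out libraries for the Irx4 ratios of fetal to adult level was added after seeing the data: they ranged from 0.401 to 0.419 in basal-like and from 1.55 to 3.59 in luminal progenitor-like nuclei.

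With 2 libraries per stage, and 0 to 3 reads in some fetal regions, fold changes of the least open regions are imprecise, and Irx6 levels rest on 579 reads.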
